A study of Homo sapiens with 12 samples.

Results

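The genes described here are 7 genes of cholesterol synthesis and its control, HMGCS1, INSIG1, SQLE, IDI1, MSMO1, FDFT1 and SREBF2, measured by RNA sequencing in K1 and TPC-1, established lines from papillary thyroid cancer. They were chosen by name, with earlier results of these data known. Each matched 1 row of the deposited gene table, and they are 7 of the 61806 genes listed there. Counts among the 7 therefore describe the set and are not a test of it. The series holds 12 libraries in 4 groups of 3: K1 cells given TRIM35 siRNA, K1 cells given negative control siRNA, TPC-1 cells given TRIM35 siRNA and TPC-1 cells given negative control siRNA. A small interfering RNA (siRNA) directs the cell to destroy a matching transcript, and TRIM35 encodes a member of the tripartite motif family of ubiquitin ligases. The labels give every library a wild-type genotype, and cells were harvested 24 hours after transfection. Each line is an established culture, so the groups compare 1 line with another and do not sample patients, and nothing in the labels says whether the 3 libraries of a group came from separate cultures. The p-values below therefore measure the spread between libraries, which may be technical.

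Cholesterol is built from acetyl-CoA through mevalonate, the isoprenoid units, squalene and the sterol rings. The transcription factor SREBP2, encoded by SREBF2, sits in the endoplasmic reticulum as a precursor, and when sterols are scarce it is escorted to the Golgi, cut free and sent to the nucleus, where it switches on the enzymes of the pathway. When sterols are plentiful INSIG proteins hold the escort protein SCAP in the endoplasmic reticulum and the precursor stays there, and INSIG1 is itself a target of SREBP2. In cultured cells these transcripts therefore often move together as sterol supply changes. Of the 7 genes, HMGCS1 makes HMG-CoA, the substrate of the mevalonate step, IDI1 interconverts the isoprenoid building units, FDFT1 joins farnesyl units into squalene, SQLE oxidises squalene in a pace-limiting step and MSMO1 removes methyl groups from the sterol ring. The set thus holds 5 enzymes, 1 feedback regulator and 1 transcription factor, and no uptake receptor.

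The promoters are shown because SREBP2 acts there, together with the factors NF-Y and Sp1. The 250 bases upstream of the transcription start were taken from RefSeq (GRCh38.p14) for the 5 genes with an entry in the promoter table, each printed 5′ to 3′ on the strand of its gene. Capitals mark the core letters of a sterol regulatory element, TCACNCCA, and the NF-Y letters CCAAT or, where the box is on the opposite strand, ATTGG.
HMGCS1 (chr5:43313413-43313662, minus strand): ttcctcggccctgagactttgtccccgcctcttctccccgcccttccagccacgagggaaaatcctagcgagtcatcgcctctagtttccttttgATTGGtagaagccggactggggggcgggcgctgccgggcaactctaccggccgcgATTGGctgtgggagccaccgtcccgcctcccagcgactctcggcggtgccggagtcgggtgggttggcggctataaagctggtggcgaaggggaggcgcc
INSIG1 (chr7:155297628-155297877, plus strand): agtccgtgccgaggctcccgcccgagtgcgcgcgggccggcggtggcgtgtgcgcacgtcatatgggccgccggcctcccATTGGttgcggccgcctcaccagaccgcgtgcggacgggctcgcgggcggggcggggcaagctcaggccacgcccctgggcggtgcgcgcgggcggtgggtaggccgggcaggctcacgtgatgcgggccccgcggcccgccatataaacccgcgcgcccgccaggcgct
IDI1 (chr10:1049120-1049369, minus strand): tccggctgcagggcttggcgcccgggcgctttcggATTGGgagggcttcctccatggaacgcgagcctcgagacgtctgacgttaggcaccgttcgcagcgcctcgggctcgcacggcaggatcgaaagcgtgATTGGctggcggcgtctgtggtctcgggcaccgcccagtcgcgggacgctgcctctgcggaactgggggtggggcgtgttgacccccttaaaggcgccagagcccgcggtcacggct
MSMO1 (chr4:165327419-165327668, plus strand): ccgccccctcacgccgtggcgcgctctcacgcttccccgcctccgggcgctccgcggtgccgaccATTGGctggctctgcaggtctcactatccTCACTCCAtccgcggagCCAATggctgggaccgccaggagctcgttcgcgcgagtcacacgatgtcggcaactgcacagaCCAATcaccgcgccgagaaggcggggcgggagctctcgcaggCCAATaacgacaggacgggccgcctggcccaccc
SREBF2 (chr22:41832855-41833104, plus strand): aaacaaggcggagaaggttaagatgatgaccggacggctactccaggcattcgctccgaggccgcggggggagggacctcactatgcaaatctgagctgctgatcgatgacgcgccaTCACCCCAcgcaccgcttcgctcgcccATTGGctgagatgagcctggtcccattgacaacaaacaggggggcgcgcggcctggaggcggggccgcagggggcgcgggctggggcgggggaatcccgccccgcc
Both strands were searched. The CCAAT box was present in 5 of the 5 promoters, against 32.0% of 35116 RefSeq promoters of the same length, and the Sp1 letters GGGCGG in 5 of 5, against 42.6%. The core TCACNCCA was found in 2 of the 5, at 156 bases upstream of the start in MSMO1 and at 133 bases in SREBF2, against 3.2% of all promoters. Among 13 other cholesterol synthesis enzymes with an entry, 9 held CCAAT, 10 held GGGCGG and 1 held the core (MVK, mevalonate kinase). A match is a description of letters in a window, and where a gene has several starts the one nearest to its annotated start was used.

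Levels are given in FPKM, fragments scaled by gene length and library total, which the authors deposited beside raw counts. Total counts ran between 16705044 and 22928861 per library, and all 7 genes passed the filter on low counts, with between 1446 and 5104 counts per library. TRIM35 itself was at 1.20, 1.49 and 1.53 FPKM in TRIM35 siRNA and 1.51, 1.85 and 1.47 FPKM in control siRNA libraries of K1. In TPC-1 it was at 2.34, 2.56 and 2.58 FPKM in TRIM35 siRNA and 2.86, 2.91 and 3.06 FPKM in control siRNA libraries. TRIM35 overlapped between the siRNA groups in K1 and did not in TPC-1, and the fitted level under TRIM35 siRNA was 87.9% (95% CI 68.5 to 113) of control in K1 and 84.8% (66.8 to 108) in TPC-1, with adjusted p = 1 in both. In both lines the siRNA comparisons below thus rest on libraries whose TRIM35 level was not separable from control by this test. Of the thyroid markers, PAX8 and FOXE1 were above 1 FPKM in both lines while NKX2-1 had no count in any group. KRT18 led the 6 epithelial markers in every group. Their summed level ran between 50.3 and 73.7 FPKM in K1 TRIM35 siRNA and 53.8 and 77.6 FPKM in K1 control libraries. In TPC-1 it ran between 38.2 and 44.6 FPKM under TRIM35 siRNA and 40.0 and 47.7 FPKM under control siRNA. In TPC-1 control 2 of the 6 reached a mean of 1 FPKM, and 3 in each other group. EPCAM stayed at or below 0.62 FPKM. CDH1 had no count in TPC-1 and at most 0.02 FPKM in K1. The summed level of 6 fibroblast markers stayed at or below 1.33 FPKM. The summed level of 6 leukocyte markers ran between 4.86 and 6.21 FPKM in K1 TRIM35 siRNA, 4.66 and 6.30 FPKM in K1 control, 0.25 and 0.70 FPKM in TPC-1 TRIM35 siRNA and 0.45 and 0.64 FPKM in TPC-1 control libraries. In K1 1 of these 6, CD14, reached 1 FPKM, while CD3E had no count. The summed level of 4 endothelial markers ran between 1.61 and 2.00 FPKM in K1 TRIM35 siRNA and 1.42 and 1.70 FPKM in K1 control libraries, with KDR alone reaching 1 FPKM, and was at most 0.11 FPKM in TPC-1. The summed level of the 7 thyroid markers, 2 of which reached 1 FPKM, ran between 107 and 144 FPKM in K1 TRIM35 siRNA, 119 and 133 FPKM in K1 control, 19.8 and 22.6 FPKM in TPC-1 TRIM35 siRNA and 21.0 and 21.4 FPKM in TPC-1 control libraries. The part of these markers in the line differences below was not tested.

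Positions are those of the deposited annotation on hg38. HMGCS1 (ENSG00000112972) lies at chr5:43287470-43313512 on the minus strand, INSIG1 (ENSG00000186480) at chr7:155297776-155310235 on the plus strand and SQLE (ENSG00000104549) at chr8:124998497-125022283 on the plus strand. IDI1 (ENSG00000067064) lies at chr10:1039152-1049119 on the minus strand and MSMO1 (ENSG00000052802) at chr4:165327667-165343164 on the plus strand. FDFT1 (ENSG00000079459) lies at chr8:11795573-11839304 and SREBF2 (ENSG00000198911) at chr22:41833079-41907307, both on the plus strand, so the 7 genes are spread over 6 chromosomes.

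K1 cells held less of the 5 enzyme transcripts than TPC-1 cells, while INSIG1 and SREBF2 did not pass the test in either direction. The line comparison was made once in the control siRNA libraries and once in the TRIM35 siRNA libraries, which share no library. Under control siRNA, 5 of the 7 genes were lower in K1, 0 were higher, and the median log2 fold change of the 7 was -0.56. Across the transcriptome the lines differ widely, since 67.9% of 17447 tested genes passed at an adjusted p under 0.05, with 35.8% higher and 32.1% lower in K1. Under TRIM35 siRNA the same 5 genes were lower, 0 were higher and the median of the 7 was -0.69, where 68.3% of tested genes passed, 35.9% higher and 32.4% lower. In such bulk samples, fewer cells holding a transcript and less of it per cell cannot be told apart. Among genes with a mean of at least 5 FPKM, a range that holds all 7, 2896 of 6427 were lower in K1 and 1610 were higher, with a median of -0.26.

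SQLE, squalene epoxidase, showed the largest difference of the 7. It was at 25.05, 24.57 and 25.99 FPKM in TRIM35 siRNA and 27.53, 24.42 and 25.75 FPKM in control siRNA libraries of K1, and at 60.45, 51.87 and 47.61 FPKM in TRIM35 siRNA and 52.87, 43.00 and 42.75 FPKM in control siRNA libraries of TPC-1. Every K1 library lay below every TPC-1 library. The log2 fold change of K1 over TPC-1 was -0.93 (SE 0.13, adjusted p = 1.29e-05) under control siRNA, so that the K1 level was 52.5% of the TPC-1 level (95% CI 43.3 to 63.7), and -1.17 (SE 0.13, adjusted p = 1.12e-06) under TRIM35 siRNA.

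FDFT1, squalene synthase, was at 19.91, 19.73 and 22.67 FPKM in TRIM35 siRNA and 22.28, 19.10 and 19.92 FPKM in control siRNA libraries of K1. In TPC-1 it was at 31.78, 36.10 and 37.70 FPKM in TRIM35 siRNA and 28.09, 35.58 and 33.61 FPKM in control siRNA libraries. The lines did not overlap for this gene, and the level under control siRNA was 1.70-fold lower in K1 (95% CI 1.37 to 2.10; log2 fold change -0.76, SE 0.15, adjusted p = 0.00026). HMGCS1, the HMG-CoA synthase, was at 18.26, 18.04 and 16.24 FPKM in TRIM35 siRNA and 16.36, 17.17 and 18.65 FPKM in control siRNA libraries of K1, against 27.76, 27.66 and 33.91 FPKM in TRIM35 siRNA and 21.87, 23.61 and 27.21 FPKM in control siRNA libraries of TPC-1. Again every K1 library was the lower, and the log2 fold change was -0.58 (SE 0.12, adjusted p = 0.000656) under control siRNA and -0.86 (SE 0.12, adjusted p = 1.59e-05) under TRIM35 siRNA.

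IDI1, the isopentenyl diphosphate isomerase, was between 29.41 and 35.20 FPKM in the K1 TRIM35 siRNA group, 30.87 and 32.16 FPKM in the K1 control group, 42.93 and 50.27 FPKM in the TPC-1 TRIM35 siRNA group and 38.70 and 46.08 FPKM in the TPC-1 control group. Its log2 fold change under control siRNA was -0.56 (SE 0.14, adjusted p = 0.00202). IDI1 overlaps the antisense gene IDI2-AS1, which averaged 116.8 counts against 3255.4 for IDI1, and no source used here says whether counting used strand. Genes that overlap FDFT1, HMGCS1 and SREBF2 averaged at most 2.8 counts. MSMO1, the sterol C4-methyl oxidase, was between 48.65 and 57.07 FPKM in the K1 TRIM35 siRNA group, 51.24 and 56.31 FPKM in the K1 control group, 77.22 and 80.69 FPKM in the TPC-1 TRIM35 siRNA group and 65.30 and 68.19 FPKM in the TPC-1 control group. It had the smallest called difference of the 5 under control siRNA, a log2 fold change of -0.43 (SE 0.12, adjusted p = 0.00634). For both genes the 2 lines were separate, as were the lines for all 5 enzymes, where 31.3% of tested genes were non-overlapping and lower in K1 in the control libraries and 30.2% in the TRIM35 siRNA libraries.

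**Figure D1:**
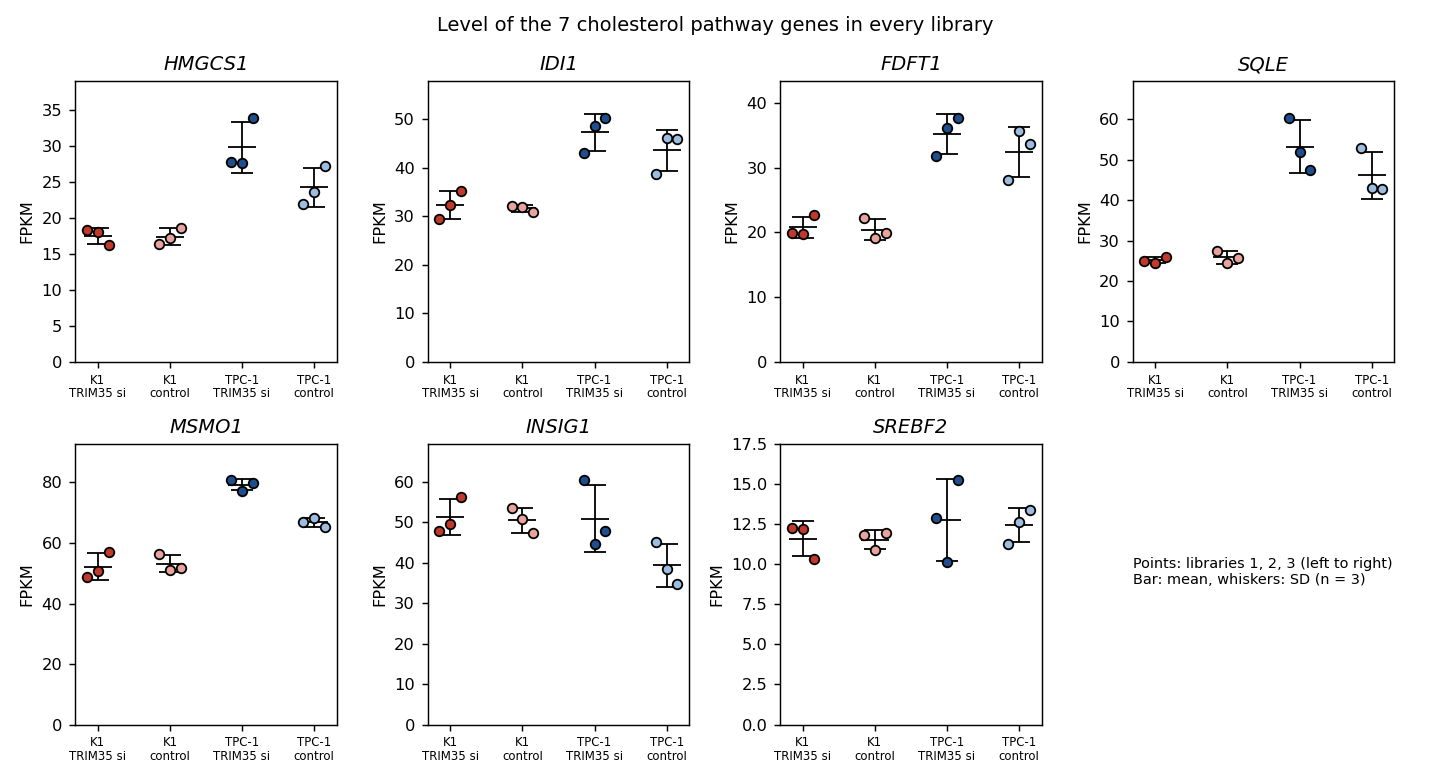
FPKM of the 7 genes in the 12 libraries, 1 panel per gene, with points for libraries and bars for the mean and SD of 3 libraries in each group. SQLE, FDFT1, HMGCS1, IDI1 and MSMO1 lie lower in K1 than in TPC-1, whereas SREBF2 lies between 10.14 and 15.22 FPKM in all libraries.

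INSIG1, the sterol-sensing anchor of SCAP, and SREBF2 did not pass in either line comparison. INSIG1 was at 47.85, 49.61 and 56.34 FPKM in TRIM35 siRNA and 53.41, 50.71 and 47.27 FPKM in control siRNA libraries of K1, against 60.34, 44.53 and 47.82 FPKM in TRIM35 siRNA and 45.10, 38.34 and 34.64 FPKM in control siRNA libraries of TPC-1. Under control siRNA every K1 library was above every TPC-1 library, where 40.5% of tested genes were so, and under TRIM35 siRNA the lines overlapped. The log2 fold change of K1 over TPC-1 was 0.27 (SE 0.15, adjusted p = 0.118) under control siRNA and -0.07 (SE 0.15, adjusted p = 0.676) under TRIM35 siRNA, so neither passed. Without TPC-1 control library 1 the control siRNA value was 0.38 with adjusted p = 0.0467. SREBF2 was at 12.28, 12.17 and 10.33 FPKM in TRIM35 siRNA and 11.79, 10.87 and 11.92 FPKM in control siRNA libraries of K1. In TPC-1 it was at 12.86, 10.14 and 15.22 FPKM in TRIM35 siRNA and 11.28, 12.63 and 13.37 FPKM in control siRNA libraries. The lines overlapped in both comparisons, and the log2 fold change was -0.21 (SE 0.14, adjusted p = 0.189) under control siRNA and -0.23 (SE 0.14, adjusted p = 0.143) under TRIM35 siRNA. Without TPC-1 TRIM35 siRNA library 2 the TRIM35 siRNA comparison gave -0.37 with adjusted p = 0.0246.

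The balance of some of the 7 transcripts within a library differed between the lines. In FPKM, INSIG1 was between 1.84 and 2.17 times SQLE in the 6 K1 libraries, with a median of 1.98, and between 0.81 and 1.0 times SQLE in the 6 TPC-1 libraries, with a median of 0.875. HMGCS1 was 1.39 to 1.58 times SREBF2 in K1 and 1.87 to 2.73 times SREBF2 in TPC-1. For IDI1 over FDFT1 the lines were closer, at 1.44 to 1.67 in K1 and 1.3 to 1.38 in TPC-1. The order of mean levels in both K1 groups was MSMO1, INSIG1, IDI1, SQLE, FDFT1, HMGCS1 and SREBF2, and only MSMO1 and INSIG1 overlapped among neighbours. In both TPC-1 groups MSMO1 was highest, SQLE second and SREBF2 lowest. SQLE overlapped its lower neighbour in both, and FDFT1 and HMGCS1 overlapped under TRIM35 siRNA. INSIG1 stood above IDI1 in the TRIM35 siRNA group and below it in the control group, though these 2 genes overlapped in each, and INSIG1 overlapped FDFT1 in the control group.

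In TPC-1, 0 of the 7 genes passed the test for TRIM35 siRNA over all genes, where 0% of 17447 genes passed and 337 had an unadjusted p under 0.05. DESeq2 and limma-voom with library weights each called 2 genes in this comparison, neither of them calling any of the 7. Of the 7 log2 fold changes, 7 were above 0, with a median of 0.21 and a range between 0.03 and 0.37, while 49.5% of all tested genes were above 0 with a median of 0.00. INSIG1 had 0.37 (SE 0.15, unadjusted p = 0.0231) and HMGCS1 had 0.30 (SE 0.12, unadjusted p = 0.0283), each with adjusted p = 1. MSMO1 was at 80.69, 77.22 and 79.76 FPKM under TRIM35 siRNA and at 66.94, 68.19 and 65.30 FPKM under control siRNA, without overlap, and its log2 fold change was 0.25 (SE 0.12, adjusted p = 1). HMGCS1 also did not overlap in FPKM, and these 2 compare with 2.53% of tested genes that were higher without overlap. On the log2 scale of counts per library total (CPM, TMM-scaled), an exact two-sided permutation test gave 0.1 for MSMO1 and INSIG1, the smallest value that 3 libraries against 3 allow, and 0.2 for HMGCS1. The log2 fold changes of SQLE, IDI1, FDFT1 and SREBF2 were 0.21, 0.12, 0.12 and 0.03, with adjusted p = 1.

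Same-numbered TPC-1 libraries deviated alike from their group means (the check is in the processing section), so they were also compared. The labels do not say that they are pairs. The level under TRIM35 siRNA over that under control siRNA was above 1 in all 3 pairs for 6 of the 7 genes, SREBF2 being the exception, where 13.3% of all tested genes and 16.1% of those with a mean of at least 5 FPKM were higher in all 3. The FPKM ratios of INSIG1 were 1.34, 1.16 and 1.38, those of HMGCS1 were 1.27, 1.17 and 1.25, and those of MSMO1 were 1.21, 1.13 and 1.22. SREBF2 had ratios of 1.14, 0.803 and 1.14. In a fit of the TPC-1 libraries alone with the replicate number as a block, which was added after the data were seen, INSIG1 passed with a log2 fold change of 0.37 (SE 0.07, adjusted p = 0.0369). In that fit 0.0551% of 14530 genes passed and 0.0482% passed as higher, while HMGCS1 (adjusted p = 0.114) and MSMO1 (adjusted p = 0.234) did not pass. A block within each line over all 12 libraries gave INSIG1 adjusted p = 1, with an SE of 0.14. That fit covered 17447 genes and also blocked K1 by its replicate numbers. Same-numbered K1 libraries did not vary alike. The part of these differences between the fits in the INSIG1 result was not tested. The total counts of the TPC-1 libraries were 18551164, 20559578 and 22436904 under TRIM35 siRNA against 18463284, 17965808 and 18214636 under control siRNA, and the part of this difference in the result was not tested.

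In K1, 0 of the 7 genes passed the test for TRIM35 siRNA, where 0% of 17447 genes passed and 136 had an unadjusted p under 0.05. DESeq2 called 0 genes, while limma-voom with library weights called 688, with 0 of the 7 among them. The log2 fold changes of the 7 lay between -0.03 for SQLE and 0.04 for IDI1, with a median of 0.01. Of the 7, 5 were above 0, where 48.7% of all tested genes were. The FPKM values of the siRNA groups overlapped for every one of the 7 genes, where 4.74% of tested genes did not overlap. For INSIG1 the fitted level under TRIM35 siRNA was 102% of control (95% CI 82.4 to 127), and for HMGCS1 it was 101% (84.2 to 121). In TPC-1 these levels were 129% (104 to 160) and 123% (103 to 147), so the intervals of the 2 lines overlapped for both genes. The difference between the lines in the effect of the siRNA, K1 minus TPC-1, was tested directly. It was below 0 for all 7, where 9026 of 17447 tested genes were below 0. The values lay between -0.34 (SE 0.21) for INSIG1 and -0.02 (SE 0.19) for SREBF2, with a median of -0.24 and adjusted p = 1.00 for each. Over all genes 0 of 17447 passed (0%), with 301 at an unadjusted p under 0.05. This difference uses the same libraries as the siRNA comparisons within each line, so it is not separate from them.

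**Figure D2:**
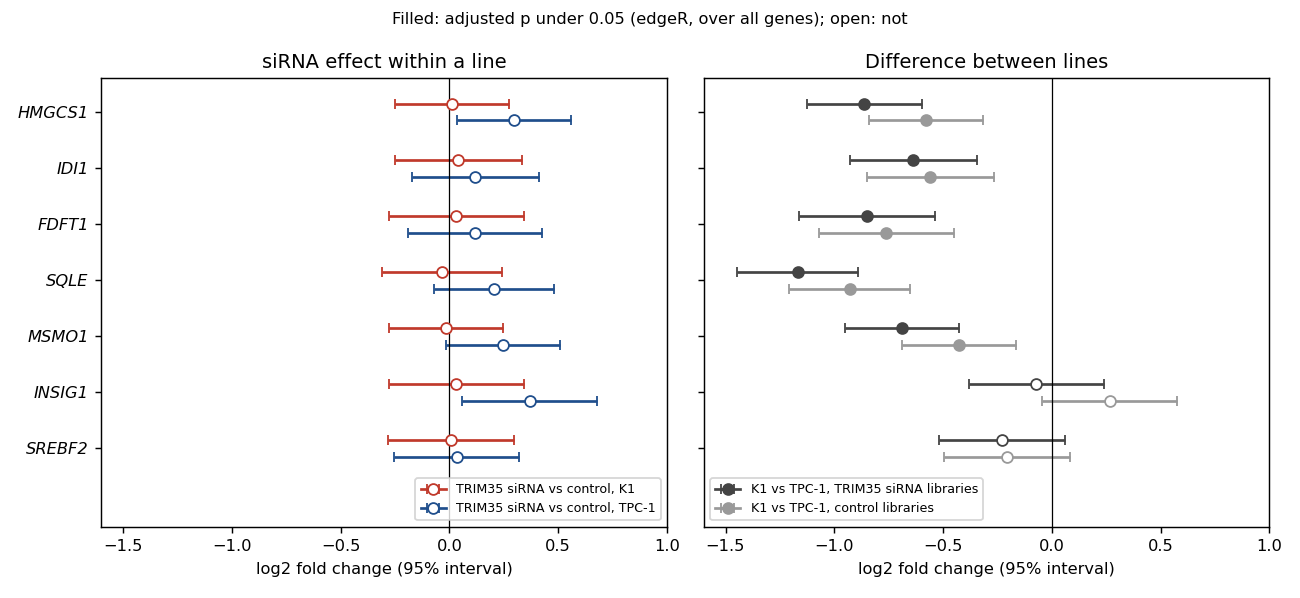
Log2 fold changes of the 7 genes with 95% confidence intervals for TRIM35 siRNA over control siRNA in K1 and in TPC-1 and for K1 over TPC-1 in the TRIM35 siRNA and the control siRNA libraries. The siRNA values in K1 lie between -0.03 and 0.04, those in TPC-1 between 0.03 and 0.37, and the line values of the 5 enzymes lie below 0.

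Some libraries within a line stood apart in most of the 7 genes. In K1, TRIM35 siRNA library 3 and control library 1 each had 6 of the 7 genes above the mean of the line, by 0.153 and 0.107 on the log2 scale on average over the 7, while the other 4 K1 libraries had 0 to 2 of 7 above it. One of these libraries is treated and the other is a control. They also stood together at 1 end of the first principal component of gene expression in K1 (81.5% of the variance) and had the highest share of counts in ribosomal protein genes, 6.66% and 6.48%, against 4.27% to 5.5% in the others. In TPC-1 the 3 TRIM35 siRNA libraries had 4, 6 and 6 of the 7 genes above the mean of the line and the 3 control libraries 1, 3 and 4. The summed level of the 7 genes was 201.4, 207.4 and 223.8 FPKM in TRIM35 siRNA and 219.8, 205.4 and 206.1 FPKM in control siRNA libraries of K1. In TPC-1 it was 316.8, 296.1 and 312.3 FPKM in TRIM35 siRNA and 264.8, 267.4 and 262.7 FPKM in control siRNA libraries. The siRNA groups of TPC-1 thus did not overlap in this sum, which is a description and was not tested. A fit without both K1 libraries numbered 3 removed the high TRIM35 siRNA library 3 and control library 3, which averaged -0.066 over the 7. It kept the high control library 1, so the removal was not balanced. In that fit the K1 siRNA log2 fold changes of INSIG1, FDFT1 and IDI1 were -0.16, -0.13 and -0.11. Their edgeR adjusted p were 0.715, 0.775 and 0.781. The part of these library differences in the results was not tested.

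**Figure D3:**
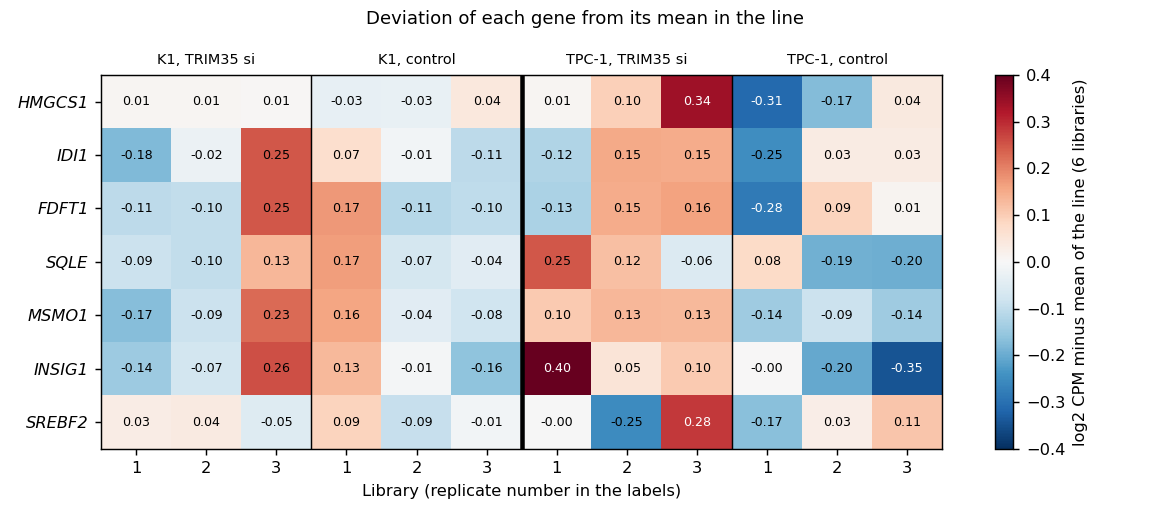
Deviation of each of the 7 genes from the mean of its line in each of the 12 libraries, in log2 CPM (counts scaled by library total). K1 TRIM35 siRNA library 3 and K1 control library 1 have 6 of 7 genes above the mean of the line.

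Within a line the 7 genes did not all vary together. Over the 12 libraries, each centred on its line, the pairs IDI1 with FDFT1 (Pearson r 0.93) and INSIG1 with SQLE (0.88) were the most alike, and SQLE with SREBF2 the least (-0.35). MSMO1 was close to INSIG1 (0.80), FDFT1 (0.73) and IDI1 (0.73). These libraries share depth and composition, so the values are descriptions. Among 6420 other genes with a mean of at least 5 FPKM, the 5 whose centred profile was most like the mean of the 7 were UBE2L6 (r 0.919), ERRFI1 (0.915), DHCR7 (0.913), F11R (0.908) and CTBS (0.900). DHCR7 encodes the reductase of the last step of cholesterol synthesis. An r of at least 0.8 was reached by 0.779% of these genes and by 3 of 43 genes of the pathway lists, namely DHCR7, SCD and NR1H2, and an r of at least 0.5 by 19.9% and by 15 of 43.

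The wider enzyme list went mostly, but not wholly, in the same direction between the lines. Of 15 other cholesterol synthesis enzymes, 8 passed as lower in K1 under control siRNA and 9 under TRIM35 siRNA. Among all tested genes 32.1% and 32.4% passed as lower. Among genes with a mean of at least 5 FPKM, 2896 and 2902 of 6427 did, though some of the 15 lie below that level. None of the 15 passed as higher in either, and the medians were -0.33 and -0.76. Under control siRNA 11 log2 fold changes were below 0 and 4 above, up to 0.48, and under TRIM35 siRNA 14 were below and 1 above. Under control siRNA the smallest p in this list were those of LBR (-2.46), a sterol reductase that is also a lamin receptor, EBP (-3.0), a sterol isomerase, ACAT2 (-1.54), which makes acetoacetyl-CoA, and PMVK (-1.58), the phosphomevalonate kinase.

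The sterol-sensing list, 13 genes that include INSIG1 and SREBF2, was mixed. Under control siRNA 1 was higher and 5 lower in K1, where 35.8% of all tested genes were higher and 32.1% lower. The median of the 13 was -0.21. INSIG2, the second INSIG protein, was at 151.44, 156.95 and 156.24 FPKM in TRIM35 siRNA and 137.83, 153.91 and 168.38 FPKM in control siRNA libraries of K1. In TPC-1 it was at 11.47, 11.20 and 11.22 FPKM in TRIM35 siRNA and 10.92, 10.70 and 10.13 FPKM in control siRNA libraries. Its log2 fold change was 3.76 (SE 0.13, adjusted p = 7.31e-13) under control siRNA and 3.69 under TRIM35 siRNA, while SREBF1, which encodes SREBP1, was lower in K1 at -1.34 and -1.63. K1 thus held INSIG2 above INSIG1 in FPKM, and TPC-1 held INSIG1 above INSIG2.

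Across all tested genes 35.8% were higher and 32.1% lower in K1 under control siRNA, the background for the counts in this paragraph. Of the 10 tested uptake and transport genes, out of 12 listed, 5 were higher and 2 lower in K1 under control siRNA. SCARB1, a receptor for HDL, was higher in K1 at a log2 fold change of 2.87, and NPC1, which exports sterol from lysosomes, was lower at -1.23. Of 9 tested efflux, storage and LXR genes 5 were higher and 3 lower. Among those, the sterol exporter ABCA1 was higher in K1 at 0.88, MYLIP, a sterol-responsive ubiquitin ligase, was lower at -2.14, and CYP27A1, a sterol hydroxylase, was at 3.33, 3.27 and 2.63 FPKM in K1 control libraries and 0.00, 0.02 and 0.02 FPKM in TPC-1 control libraries. ABCA1 was named after its values were seen for this comparison. In the fatty acid list 3 of 11 genes were higher and 6 lower, with SCD, the stearoyl desaturase, at -0.89 and FASN, the fatty acid synthase, at -1.21. In the isoprenoid branch 3 of 14 were higher and 8 lower, with PDSS1, of coenzyme Q synthesis, at -2.01.

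None of the genes in the 6 lists passed in either siRNA comparison, each tested with edgeR over 17447 genes. In TPC-1, 16 of the 20 enzymes were above 0, with a median of 0.12, and 11 of the 15 outside the 7, with a median of 0.08. In K1, 7 of the 20 were above 0, with a median of -0.01. HSD17B7 (0.29) and DHCR7 (0.21) had the smallest p of the enzymes outside the 7 in TPC-1, and SCD had 0.31 with an unadjusted p = 0.022, each with adjusted p = 1.

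**Figure D4:**
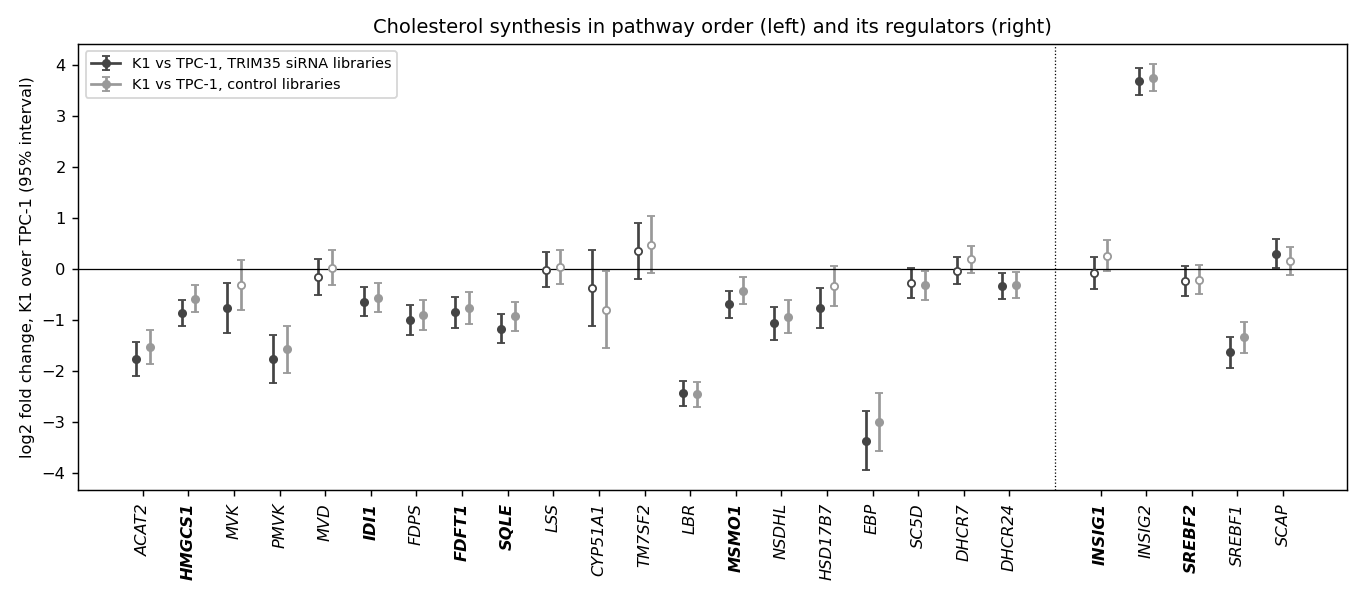
Log2 fold changes of K1 over TPC-1 with 95% confidence intervals for 20 cholesterol synthesis enzymes in pathway order and, right of the dotted line, for 5 sterol-sensing genes, in the TRIM35 siRNA and the control siRNA libraries, filled where adjusted p was under 0.05. The 7 genes are in bold, and the enzymes lie mostly below 0 in the line comparisons, with a median of -0.76 in the TRIM35 siRNA and -0.57 in the control siRNA libraries.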

How the data were processed

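RNA was sequenced from 12 libraries of TRIM35 siRNA and control siRNA cultures of K1 and TPC-1. Per the labels' protocols, total RNA was taken with TRIzol and cDNA was made from random primers. The submitters' processing notes name cutadapt 1.9.1, an adapter trimmer, and the build hg38. For aligner, counter and strand use, the choice was not given in the sources used here. Both measures were deposited by the authors, raw counts per gene and FPKM, in 1 table of 61806 genes. The title of 1 TPC-1 control library names another line while its other labels and its column name TPC-1, and it was kept there.

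Counts were tested with edgeR 4.0.16 (R 4.3.3) by the quasi-likelihood test with TMM scaling, filterByExpr, 1 mean per group over 12 libraries and 8 residual degrees of freedom. Benjamini-Hochberg adjustment ran over 17447 tested genes and a gene was called at an adjusted p under 0.05. The filter removed between 0.0838% and 0.2% of counts per library. The script was tested on simulated counts with a spread estimated from these data. A log2 change of 0.5 was called for 7% of the changed genes in the TPC-1 siRNA comparison and 14% in that of K1. For a log2 change of 1 the shares were 89% and 92%. A gene that did not pass is thus not shown to be unchanged. The deposited FPKM values, which equal counts scaled by gene length and library total, gave all levels. Alternatives were RLE size factors, no filter, a filter of at least 1 CPM, DESeq2 1.42.0, limma 3.58.1 on log2(FPKM + 0.1) and log2(FPKM + 1), limma-voom with library weights, a replicate block, the compared groups alone and leaving out each library. The TPC-1 fit with the block and the fit without both K1 libraries 3 were chosen after seeing the data.

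Deviations of same-numbered libraries from their group means correlated at 0.765, 0.313 and 0.832 over 6427 genes in TPC-1 and at -0.793, 0.022 and -0.813 in K1. By this check same-numbered libraries varied alike in TPC-1 and not in K1, which comes from the data and not from the labels. Crossed numbers were alike in K1, where TRIM35 siRNA library 1 correlated with control library 3 at 0.787 and library 3 with control library 1 at 0.82. In TPC-1, TRIM35 siRNA library 2 correlated with control library 1 at 0.235. Whether same-numbered TPC-1 libraries were prepared together was not tested. The members and lists were chosen with earlier results of these data known. Besides them, TRIM35, the genes with the smallest p of each list (up to 4 in the line comparison and 2 in each siRNA comparison) and the 5 genes most like the mean of the members were named by rule. Of the listed genes, 2 are not reported here.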

Additional observations from a re-analysis of the deposited data

How the results depend on the processing

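The direction and call of the 5 enzymes in both line comparisons held under every alternative run, with 5 to 7 of the 7 genes called in the control siRNA libraries and 5 to 6 in the TRIM35 siRNA libraries. INSIG1 under control siRNA passed with limma at 0.36 for both pseudocounts, with voom at 0.28 and without TPC-1 control replicate 1 at 0.38. SREBF2 passed with voom at -0.29, and under TRIM35 siRNA without TPC-1 TRIM35 siRNA replicate 2 at -0.37. INSIG1 under TRIM35 siRNA was at 0.0192 and 0.0187 with limma.

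Genes called for the siRNA numbered 688 with voom and 2 with no filter in K1, and 2 with DESeq2, 2 with voom, 2 with no filter and 8 with the TPC-1 replicate block (1 of the 7 genes, INSIG1) in TPC-1. For the difference between lines they numbered 2 with DESeq2, 3 with voom, 4 with no filter and between 0 and 1 on leaving out each library. The block within each line and over both lines called 0 of the 7 in the siRNA comparisons and changed no call of the 7 between the lines. The cause of these changes was not tested.

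Signs near 0 turned. For the siRNA in K1, FDFT1, IDI1 and INSIG1 were at -0.13, -0.11 and -0.16 without both K1 libraries 3. With voom, IDI1 was at -0.033 and INSIG1 at -0.062 in K1, SREBF2 at -0.12 in TPC-1 and at 0.22 for the difference, and with no filter SREBF2 was at -0.0012 in K1. Leaving out each library moved the K1 values of FDFT1 between -0.080 and 0.13, IDI1 between -0.069 and 0.13, INSIG1 between -0.086 and 0.11, MSMO1 between -0.13 and 0.064, SQLE between -0.097 and 0.048 and SREBF2 between -0.035 and 0.060. It moved SREBF2 in TPC-1 between -0.11 and 0.17, INSIG1 between lines under TRIM35 siRNA between -0.20 and 0.022, and the difference of FDFT1 between -0.22 and 0.014, IDI1 between -0.21 and 0.014 and SREBF2 between -0.16 and 0.12. With no filter the median of all genes shifted by 0.19 and 0.12 in the line comparisons.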
